A study of Mus with 14 samples.

Results

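The loss of tumour necrosis factor receptor 2 (Tnfr2) was examined in Dnmt3a-mutant blood progenitors by comparing the 4 libraries labelled Dnmt3a;Tnfr2KO with the 4 labelled Dnmt3a, which are 8 of the 14 libraries of the series. The former are called knockout libraries or mice here. Each library holds droplet-based 3' single-cell RNA counts from the bone marrow of 1 mouse. Libraries were assigned by their titles, and cell barcodes were kept with at least 1000 unique molecular identifiers (UMIs, the counted RNA molecules), at least 500 genes and under 10% mitochondrial UMIs. This left 43021 cells in the 8 libraries, of 70038 in all 14.

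All groups went through the same procedure. Donor marrow bearing CD45.2 was mixed with CD45.1 competitor marrow and given to aged, lethally irradiated CD45.1 hosts, which later received poly(I:C), and their marrow was then passed to a further set of irradiated aged hosts. These hosts were harvested after 20 weeks, and the sorted cells lacked lineage markers and carried Kit and CD45.2, so that the cells measured came from the donor. MxCre, the genotype of the 3 control mice, is a recombinase driven by an interferon-inducible promoter, which poly(I:C) switches on in blood cells and also in other tissues. The labels do not state the Dnmt3a allele, whether it carries a floxed or a point mutation, the background strain of each line, or whether mice of a group shared a donor, in which case p-values here are too small.

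Tnfr2, encoded by Tnfrsf1b, is one of the pair of receptors for tumour necrosis factor (TNF). Unlike Tnfr1 (Tnfrsf1a), it has no death domain. It binds TRAF proteins and signals to NF-kB, and it is known to respond best to the membrane-bound form of TNF. In marrow it is carried by myeloid cells in particular. Dnmt3a is a DNA methyltransferase whose mutation in blood stem cells is known to expand mutant clones with age.

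The 8 libraries held 79731507 to 162869740 UMIs. Between 1955 and 7745 cells were kept per library. Dnmt3a mouse 1 stood apart, since 5138 of its 7257 barcodes had fewer than 1000 UMIs and 26.9% were kept. Dnmt3a mouse 4 also stood apart, with 38.4% B-lymphoid cells. Both libraries are of the Dnmt3a group, so the counts of all genes that passed over all cells and in stem and multipotent, granulocyte and monocyte classes are also given without them. Kept cells had a median of 11275 UMIs in Dnmt3a mouse 4, the lowest, and of 39561 in Dnmt3a mouse 1, the highest. At most 17 kept barcodes were shared by any pair of the 8 libraries, and shared barcodes were at most 0.358% of the smaller library of a pair. Transcripts of the sort markers were present in each library: Kit ran from 68.6 to 182 counts per 1000000 UMIs (CPM), and Ptprc, which encodes CD45, from 69.4 to 154.5 CPM. The progenitor gene Cd34 ran from 133 to 233 CPM. The T cell gene Cd3e was at most 2.24 CPM, and the neutrophil surface gene Ly6g reached 37.5 CPM in the Dnmt3a group against 8.16 CPM at most in the knockout group.

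Cell classes were clusters that resembled a cell type by its marker genes, and each is meant as "like" that type. Elane, Ctsg and Ms4a3 were among the leading genes of the granulocyte progenitors, F13a1, Irf8 and Ly86 of the monocyte progenitors, and Hlf and Mecom of the stem and multipotent cells. Pf4 and Itga2b led the megakaryocyte, Car1 and Klf1 the erythroid, and Ms4a2 and Mcpt8 the basophil and mast cell progenitors. The granulocyte class joined 3 clusters, of which 1 was led by neutrophil maturation genes (Camp, Ngp, Ltf, S100a8 and S100a9). That cluster held 0.690%, 2.16%, 2.01% and 31.5% of the class in Dnmt3a mice 1 to 4 and 0.955% to 6.83% in knockout mice. The class of B-lymphoid cells joined 4 clusters: Vpreb1 and Vpreb3 were among the leading genes of 2 of them, and the other 2, of 662 and 317 cells over all 14 libraries, were led by genes of more mature B cells (Cd74, Ighd and Ms4a1, and Igkc and Ighm). The latter pair made up 26.2% and 47.6% of the class in knockout libraries and 5.40% and 5.64% in Dnmt3a libraries.

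Tnfrsf1b transcripts fell in the knockout mice, and they fell in granulocyte and monocyte progenitors. Over all cells of each mouse, Tnfrsf1b (ENSMUSG00000028599, chromosome 4, 145212368 to 145246870 in GRCm38) had 13.2, 12.2, 14.04 and 15.4 CPM in Dnmt3a mice 1 to 4 and 4.37, 5.56, 5.04 and 5.49 CPM in knockout mice 1 to 4. The groups did not overlap, and the spread within each was narrow. The log2 fold change was -1.42 (SE 0.158, adjusted p 5.49e-04 by edgeR's quasi-likelihood test and the Benjamini-Hochberg method, n = 4 against 4). MxCre controls averaged 13.7 CPM ± 2.79 (SD, n = 3), the level of the Dnmt3a group. The labels do not say which part of the gene was deleted, so the level is not a measure of remaining receptor.

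Among cell classes, the difference in Tnfrsf1b was largest where the gene was highest. Granulocyte progenitors had 17.7, 19.1, 17.02 and 18.6 CPM in Dnmt3a mice 1 to 4 and 3.95, 7.06, 4.89 and 5.08 CPM in the knockout mice (log2 fold change -1.79, SE 0.162, adjusted p 1.64e-05 by edgeR). Monocyte progenitors had 13.8 to 17.7 CPM against 3.98 to 5.03 CPM (log2 fold change -1.77, SE 0.140, adjusted p 1.38e-06 by edgeR). In both classes the lowest Dnmt3a mouse lay above the highest knockout mouse by more than 2 times. Haematopoietic stem cells and multipotent progenitors (HSC/MPP) had 8.63 to 11.8 CPM against 4.64 to 7.71 CPM, which did not overlap but did not pass adjustment (log2 fold change -0.80, SE 0.208, edgeR adjusted p 0.0841, range over 17 alternatives 0.022 to 0.56). Megakaryocyte progenitors gave values of the same order, with 6.08 to 9.84 CPM against 3.94 to 5.75 CPM (log2 fold change -0.69, edgeR adjusted p 0.184). In erythroid progenitors Tnfrsf1b was low, with 2.93, 2.13, 0.985 and 2.03 CPM in Dnmt3a mice and 3.21, 3.32, 4.88 and 3.11 CPM in knockout mice, so that the knockout values were the higher ones (log2 fold change 0.75, edgeR adjusted p 0.309). The change in granulocyte progenitors differed from that in HSC/MPP cells by -0.94 on the log2(CPM + 1) scale, taken within each mouse (limma adjusted p 0.0213).

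**Figure D1:**
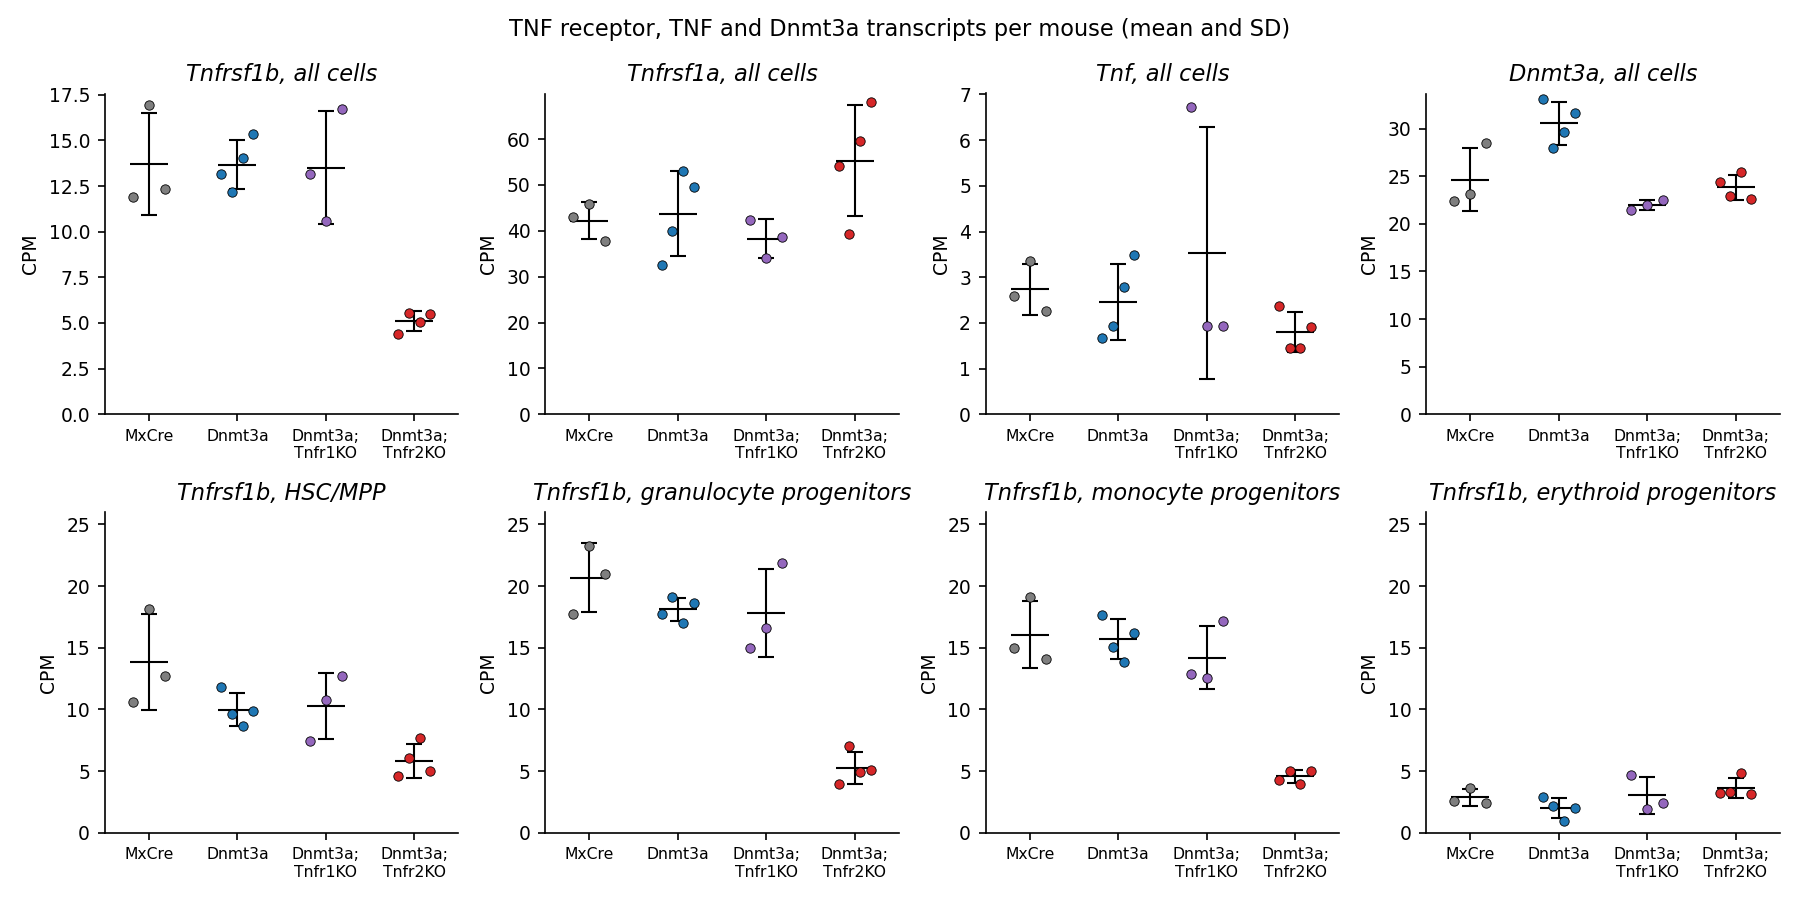
Transcript levels per mouse in CPM for Tnfrsf1b, Tnfrsf1a, Tnf and Dnmt3a over all cells (top) and for Tnfrsf1b in 4 cell classes (bottom). Each point is 1 mouse, and bars give mean and SD of each of the 4 genotype groups. The knockout mice lie between 4.37 and 5.56 CPM of Tnfrsf1b over all cells, below every other library, and lie above the Dnmt3a mice only in erythroid progenitors.

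The other receptor and the ligand did not pass the test. Tnfrsf1a had 32.5, 39.96, 53.0 and 49.5 CPM in Dnmt3a mice and 54.1, 39.4, 59.6 and 68.1 CPM in knockout mice, so the groups overlapped (log2 fold change 0.34, SE 0.172, edgeR adjusted p 0.252). Tnf was low in both, at 1.66 to 3.48 CPM against 1.45 to 2.37 CPM (log2 fold change -0.46, edgeR adjusted p 0.475). The Dnmt3a transcript had 33.1, 27.9, 29.7 and 31.6 CPM in Dnmt3a mice and 24.4, 23.0, 25.4 and 22.6 CPM in knockout mice. Every knockout mouse lay below every Dnmt3a mouse, and MxCre controls had 24.7 CPM ± 3.32 (SD, n = 3), but the difference missed adjustment over all cells (log2 fold change -0.36, SE 0.0900, edgeR adjusted p 0.0684). It passed in monocyte progenitors, where Dnmt3a fell from 25.97 to 19.9 CPM (log2 fold change -0.38, edgeR adjusted p 0.045), a call kept in 7 of 17 alternatives.

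Of 15805 genes tested over all cells, 163 passed (1.03%), 95 higher (0.601%) and 68 lower (0.43%) in the knockout mice, and 3642 (23%) had an unadjusted p under 0.05. Without Dnmt3a mice 1 and 4 the count was 30. The sums of all cells do not separate fewer cells of a type from less RNA per cell. Among 28 genes of TNF receptors and ligands, 24 could be tested and 2 passed: Tnfrsf1b fell, and Tnfrsf14, the receptor known as HVEM that binds the TNF family member LIGHT, rose. Of the 24, 10 had an unadjusted p under 0.05, and DESeq2 called 3 higher and 4 lower, where it called 1113 of all 15805 genes. The median log2 fold change of the 24 was -0.30, against -0.03 over all genes. It was -0.50 without Dnmt3a mouse 1, -0.07 without Dnmt3a mouse 4 and -0.15 without both. Of 31 genes of TNF receptor signalling, all tested, Otulin passed, 9 had an unadjusted p under 0.05, and DESeq2 called 1 higher and 2 lower. Otulin, which cleaves linear ubiquitin chains, had 45.4 to 54.9 CPM in Dnmt3a mice and 59.2 to 72.7 CPM in knockout mice without overlap (log2 fold change 0.42, edgeR adjusted p 0.0483, passed in 7 of 17 alternatives), and MxCre controls had 59.4 CPM. Of 32 NF-kB subunits and targets, none passed edgeR's test and 6 had an unadjusted p under 0.05. Against 1113 of all 15805 genes, DESeq2 called 1 of these 32, which was higher. Their median was -0.17, but 0.14 without Dnmt3a mouse 4 and -0.03 without Dnmt3a mice 1 and 4.

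A larger share of the genes near Tnfrsf1b passed than of genes elsewhere. The window of 100 annotated genes on each side of Tnfrsf1b ran from 141618819 to 148152135 on chromosome 4, and 95 of its 200 genes were found in the files by name. Of the 40 that could be tested over all cells, 11 passed (27.5%), 9 higher and 2 lower, against 151 of 15764 genes outside the window (0.958%). On the rest of chromosome 4 the count was 21 of 844 (2.49%), and 24 of the 99 tested genes that start within 10 Mb beyond Tnfrsf1b, toward the end of the chromosome, passed (24.2%). On the near side of it, 2 of 92 genes within 10 Mb passed. Without Dnmt3a mice 1 and 4, 4 of 42 genes of the window passed (9.52%), all higher, against 25 of 16002 outside it (0.156%), and in a fit of the Dnmt3a and knockout groups alone 2 of 39 passed, against 14 of 15018. Distances below are between the starts of the genes. The same window gave 6 of 30 in HSC/MPP cells, 9 of 33 in granulocyte progenitors and 10 of 35 in monocyte progenitors, against 0.592%, 2.92% and 2.48% of genes outside it. The labels do not name the strain in which the deletion was made, so loss of the receptor and other differences at or near the locus cannot be told apart.

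**Figure D2:**
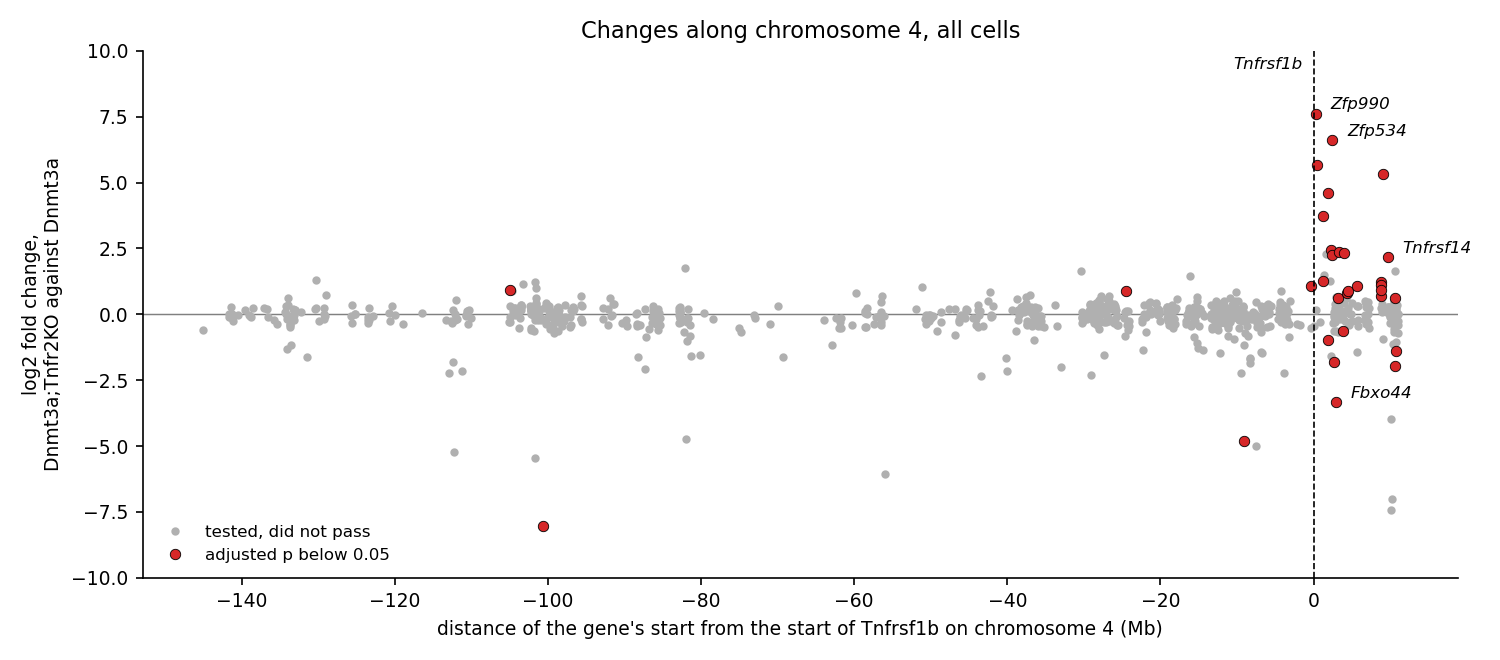
Log2 fold change of each tested gene on chromosome 4 over all cells (vertical axis, knockout against Dnmt3a) against the distance of its start from that of Tnfrsf1b in Mb (horizontal axis). Red points passed an adjusted p of 0.05 and grey points did not. Passing genes crowd within 10 Mb to the right of Tnfrsf1b, where 24 of 99 passed.

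Zfp990, a zinc-finger gene 0.298 Mb from Tnfrsf1b, showed the greatest rise among the named genes. It had 0.128, 0.216, 0.0591 and 0.0404 CPM in Dnmt3a mice and 12.4, 13.4, 30.7 and 25.3 CPM in knockout mice (log2 fold change 7.61, SE 0.490, edgeR adjusted p 2.73e-06). No knockout mouse was near any Dnmt3a mouse, MxCre controls had 0.106 CPM, and the gene passed in each of the 7 cell groupings tested. Other zinc-finger genes of the same stretch rose as well: Zfp992 from 8.21 to 19.9 CPM, Zfp985 from 1.07 to 5.79 CPM and Zfp979 from 1.35 to 6.35 CPM over all cells. Others went the other way. Zfp991 fell from 4.43 to 2.27 CPM over all cells, Zfp982 from 11.6 to 3.51 CPM in HSC/MPP cells (log2 fold change -1.97, edgeR adjusted p 0.0323, groups overlapping) and Zfp984 from 11.9 to 7.69 CPM in granulocyte progenitors (edgeR adjusted p 0.0291). Zfp534 was almost silent in Dnmt3a mice. In granulocyte progenitors Zfp534 had no UMI in any Dnmt3a mouse and 109 UMIs in the knockout mice, at least 20.1-fold higher against a floor of 3 UMIs over the Dnmt3a group. These zinc-finger genes are close copies of one another, so the split of reads among them is uncertain.

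Genes of the window with other roles changed too. Dhrs3, which reduces retinaldehyde to retinol, had 12.7 to 25.6 CPM in Dnmt3a mice and 27.4 to 48.95 CPM in knockout mice (log2 fold change 1.09, edgeR adjusted p 0.0338). In granulocyte progenitors the rise of Dhrs3 was larger, from 2.79, 4.65, 5.70 and 8.04 CPM to 24.8, 24.9, 15.2 and 39.98 CPM (log2 fold change 2.23, SE 0.274, edgeR adjusted p 4.52e-04). Fv1, which restricts retroviruses, fell from 0.845 to 0.239 CPM over all cells (log2 fold change -1.81, edgeR adjusted p 0.0437).

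Farther along, 8.7 to 10.7 Mb from Tnfrsf1b, further genes passed with no overlap between the groups. Tnfrsf14 had 2.82, 1.56, 1.54 and 1.61 CPM in Dnmt3a mice and 9.39, 7.27, 8.84 and 8.11 CPM in knockout mice (log2 fold change 2.16, SE 0.232, edgeR adjusted p 5.34e-04), while MxCre controls had 1.502 CPM. It passed in HSC/MPP cells, in granulocyte, monocyte and megakaryocyte progenitors and over all cells. Dffb, the nuclease that cuts DNA in apoptosis, rose from 8.20 to 10.4 CPM in Dnmt3a mice to 18.5 to 24.2 CPM in knockout mice (log2 fold change 1.12, SE 0.118, edgeR adjusted p 4.87e-04). Its neighbour A430005L14Rik rose alike, from 52.9 to 123 CPM (log2 fold change 1.21). Pusl1, a pseudouridine synthase-like gene, had 19.1, 24.6, 27.9 and 18.5 CPM in Dnmt3a mice and fell to 7.21, 6.20, 4.20 and 5.24 CPM in knockout mice (log2 fold change -1.98, SE 0.181, edgeR adjusted p 1.10e-04). Pusl1 overlaps Ints11 in the reference annotation, so reads of the pair may not be fully separated.

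C1qtnf12, which encodes a secreted C1q and TNF-related protein, lies on the same chromosome and fell most where it was most abundant. In erythroid progenitors it had 181, 163, 347 and 278 CPM in Dnmt3a mice and 16.6, 11.04, 28.7 and 37.5 CPM in knockout mice (log2 fold change -3.38, SE 0.385, edgeR adjusted p 0.00290). The lowest Dnmt3a mouse was more than 4 times above the highest knockout mouse, and MxCre controls had 189 CPM ± 37.2 (SD, n = 3). The fall was smaller in HSC/MPP cells (22.5 to 11.2 CPM) and in monocyte progenitors (14.5 to 7.33 CPM), and both passed. It passed in 15 of 16 alternatives in erythroid progenitors, a class in which 9 of 11046 genes passed (0.0815%). The erythroid class joined 3 clusters, 1 of them led by globin genes, and that cluster held 95.6% of the class in Dnmt3a mouse 4 against 1.10% to 13.2% in the other Dnmt3a mice and 1.44% to 8.14% in knockout mice. No erythroid or G2 and M phase gene passed in this class, where DESeq2 called 78 of the 11046 genes. Of the 25 and 33 genes of these lists, DESeq2 called 2 and 5 lower. The medians of the lists were -1.46 and -1.20, against -0.02 over all genes. Without Dnmt3a mouse 4 these medians were 0.20 and -0.27, and C1qtnf12 passed with a log2 fold change of -3.32 (edgeR adjusted p 5.03e-04).

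Of 11763 genes, 15 passed limma's test of a difference in change between granulocyte progenitors and HSC/MPP cells of the same mice (0.128%). For 2 of them, Eps8l1 and Rab6b, the knockout level was at or near 0 CPM in both classes, so that the difference follows from the Dnmt3a level and the pseudocount and does not show that their change differed. Agtrap, the angiotensin receptor-associated protein gene 2.86 Mb from Tnfrsf1b, had 31.7, 38.4, 40.4 and 33.8 CPM in HSC/MPP cells of Dnmt3a mice and fell to 21.6, 21.8, 18.6 and 25.2 CPM in knockout mice. In monocyte progenitors Agtrap rose, from 32.7 to 44.3 CPM (log2 fold change 0.43, edgeR adjusted p 0.0484), and in granulocyte progenitors it went from 43.7 to 58.96 CPM. The change of Agtrap in granulocyte progenitors exceeded that in HSC/MPP cells by 1.15 on the log2(CPM + 1) scale (limma adjusted p 1.43e-04). Ctnnbip1, an inhibitor of beta-catenin, rose from 5.72 to 18.8 CPM in granulocyte progenitors and had 15.2 and 19.7 CPM in HSC/MPP cells (difference 1.23, limma adjusted p 5.21e-04). Noc2l fell from 109 to 62.3 CPM in HSC/MPP cells and had 75.9 and 64.2 CPM in granulocyte progenitors. Anxa3 fell in HSC/MPP cells from 23.3 to 11.4 CPM and had 310 and 316 CPM in granulocyte progenitors (difference 1.02, limma adjusted p 0.0289).

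Over all cells, 16 of the 163 genes passed in each of 17 alternatives, 12 higher and 4 lower, a group singled out after its values were seen. Of these, 10 lie on chromosome 4, and 9 of them, Tnfrsf1b included, start within 10 Mb of Tnfrsf1b. Elsewhere, Ckm on chromosome 7, which encodes muscle creatine kinase, rose from 5.08, 11.7, 20.4 and 10.7 CPM in Dnmt3a mice to 217, 166, 85.4 and 120 CPM in knockout mice (log2 fold change 3.61, SE 0.395, edgeR adjusted p 5.49e-04). MxCre controls had 7.75 CPM ± 2.09 (SD, n = 3), and the 3 Dnmt3a;Tnfr1KO mice of the series had 179 CPM ± 38.9. Ckm passed in each cell class tested, from 7.25 to 70.4 CPM in HSC/MPP cells and from 14.9 to 192 CPM in granulocyte progenitors.

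Other genes away from chromosome 4 also separated the groups in full. Eps8l1 on chromosome 7, of the family of the actin regulator Eps8, had 2.21 to 4.24 CPM in Dnmt3a mice and 0.00766 to 0.0257 CPM in knockout mice (edgeR adjusted p 2.73e-06), while MxCre controls had 3.22 CPM and Dnmt3a;Tnfr1KO mice 0.0529 CPM. No UMI of Eps8l1 was found in HSC/MPP cells or granulocyte progenitors of any knockout mouse. Dnmt3a mice had 259 and 218 UMIs there, at least 116-fold and at least 132-fold higher against a floor of 3 UMIs over the knockout group. Eps8l1 overlaps Rdh13 in the reference annotation, so reads of the pair may not be fully separated. Mnd1 on chromosome 3, a meiotic recombination gene, had 24.3 to 34.1 CPM in Dnmt3a mice and 48.9 to 63.3 CPM in knockout mice (log2 fold change 1.02, SE 0.125, edgeR adjusted p 0.00146), with 27.7 CPM in MxCre and 64.5 CPM in Dnmt3a;Tnfr1KO mice. Lhfpl4 on chromosome 6, a partner of GABA receptors at synapses, had 0.184 to 0.427 CPM against 3.49 to 7.62 CPM (log2 fold change 4.403, edgeR adjusted p 5.49e-04), with 0.173 CPM in MxCre and 4.76 CPM in Dnmt3a;Tnfr1KO mice. The predicted genes Gm47283 and Gm21887 rose from 80.1 to 335 CPM and from 1.84 to 14.3 CPM, and MxCre controls lay between the groups for both, at 186 and 5.25 CPM. Ckm, Eps8l1, Gm21887, Gm47283 and Zfp990 passed over all cells and in each of the 6 classes.

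**Figure D3:**
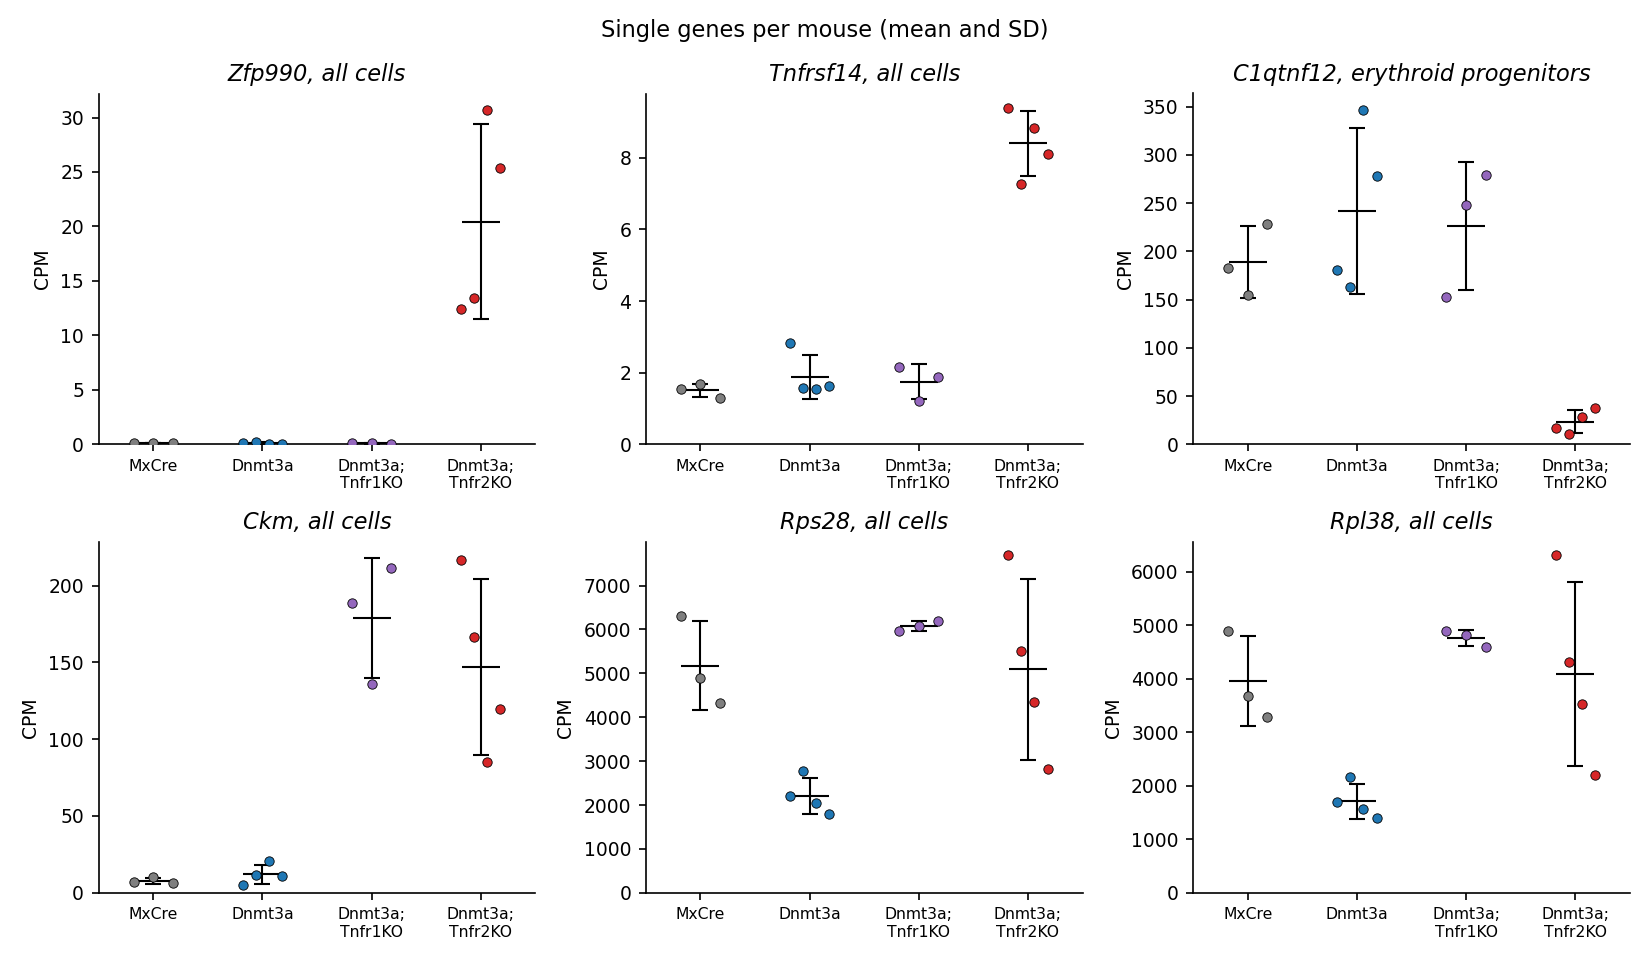
CPM per mouse of Zfp990, Tnfrsf14, Ckm, Rps28 and Rpl38 over all cells and of C1qtnf12 in erythroid progenitors. Points are mice, and bars are mean and SD for the 4 genotype groups. Zfp990, Tnfrsf14 and C1qtnf12 set the knockout mice apart from all other groups, Ckm is high in both receptor knockouts, and Rps28 and Rpl38 are lowest in the Dnmt3a mice, with knockout mouse 4 just above them at 2815 and 2200 CPM.

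Transcripts of ribosomal proteins and of an ATP synthase subunit were among those that rose in the knockout mice. Rps28, a protein of the small ribosomal subunit, had 2210, 2766, 2048 and 1804 CPM in Dnmt3a mice and 7699, 5505, 4351 and 2815 CPM in knockout mice (log2 fold change 1.21, SE 0.246, edgeR adjusted p 0.0442). The lowest knockout mouse was just above the highest Dnmt3a mouse, and MxCre controls had 5174 CPM. Rpl38, of the large subunit, had 1388 to 2163 CPM against 2200 to 6310 CPM (log2 fold change 1.26, edgeR adjusted p 0.0441), and Atp5k, a subunit of ATP synthase, had 194 to 214 CPM against 252 to 741 CPM (log2 fold change 1.27, edgeR adjusted p 0.0378). Knockout mouse 1 was highest and knockout mouse 4 lowest for all of these. Of 81 ribosomal protein genes, 7 passed, all higher, 79 had a log2 fold change above 0, and the median was 0.34 against -0.03 over all genes. DESeq2 called 34 higher, where it called 479 of all 15805 genes higher. In HSC/MPP cells 11 of 80 passed, in granulocyte progenitors 14 of 81 and in monocyte progenitors 16 of 81, all higher, where 0.64%, 2.99% and 2.56% of all genes passed. These genes together took 24.5% to 33.5% of UMIs in Dnmt3a mice, 32.3% to 35.1% in knockout mice and 32.7% to 34.6% in MxCre controls. The group was formed after its values were seen. Over all cells none of its members passed edgeR's test without Dnmt3a mouse 1, without Dnmt3a mouse 4, without knockout mouse 1 or in a fit of the Dnmt3a and knockout groups alone, and without both Dnmt3a mice 1 and 4 the median was 0.12 with 76 of 82 above 0. In granulocyte progenitors the 14 calls became 2, 1, 1 and 0 in the same settings. Without both Dnmt3a mice 1 and 4 they became 0, with a median of 0.12 and 74 of 82 above 0.

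The change followed the span of the gene on the genome. Genes whose mean reached 10 CPM in the Dnmt3a or the knockout group were ranked by span into quartiles, if the reference gave their span. It did so for 93.2% of all genes tested over all cells. The median log2 fold change over all cells was 0.22 in the shortest quartile (317 to 9615 bp), then 0.12 and -0.02, and -0.18 in the longest quartile (50485 to 1301793 bp). In granulocyte progenitors the shortest quartile held 115 genes that rose and 6 that fell, and the longest held 11 that rose and 100 that fell. Monocyte progenitors gave 100 and 5 in the shortest quartile and 9 and 67 in the longest. Without Dnmt3a mice 1 and 4, the medians over all cells were 0.09 in the shortest and -0.08 in the longest quartile, and in granulocyte progenitors 2 genes rose and 2 fell in the shortest quartile and 2 rose and 3 fell in the longest. Without Dnmt3a mouse 1 alone, granulocyte progenitors gave 34 and 2 in the shortest and 4 and 22 in the longest quartile. The part of library quality in this pattern was not tested.

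**Figure D4:**
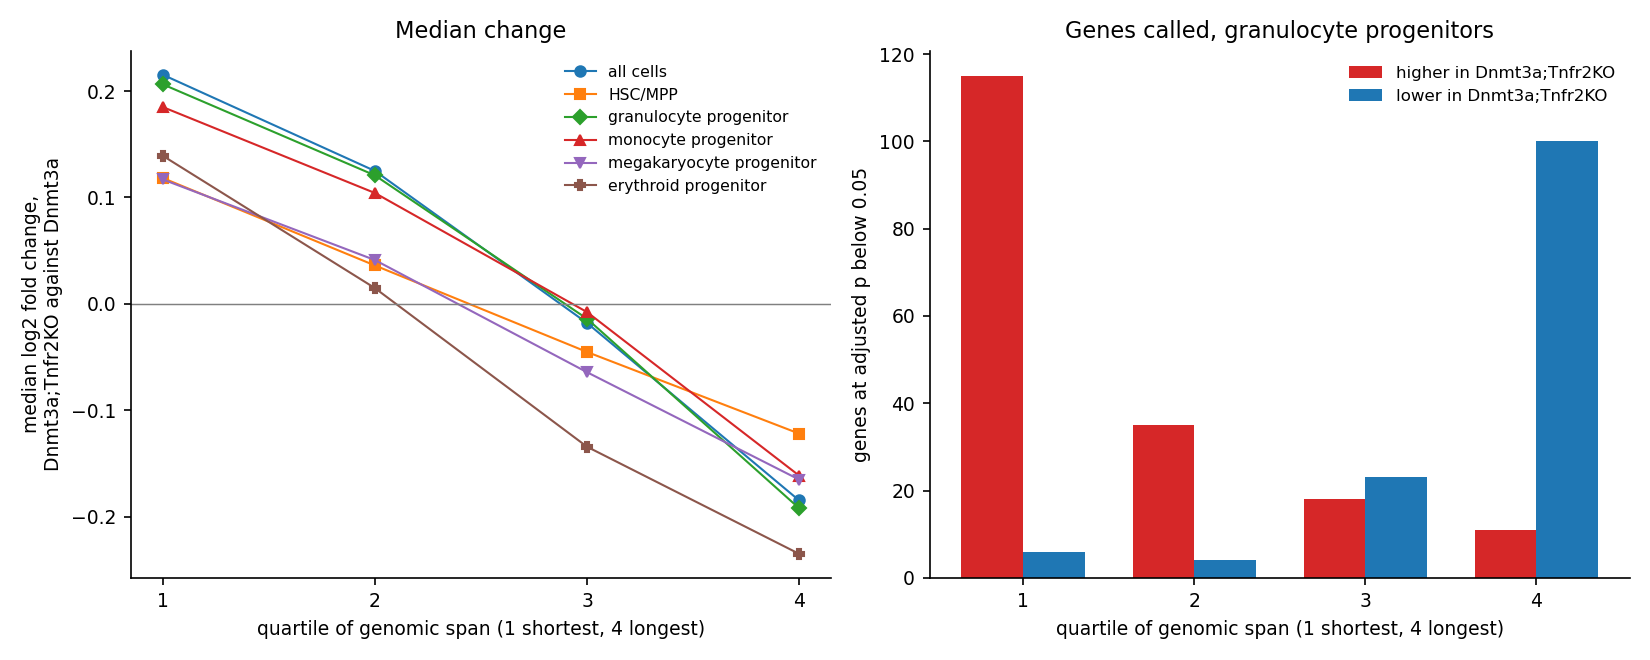
Left, the median log2 fold change (knockout against Dnmt3a) of genes in each quartile of genomic span, from shortest to longest, over all cells and in 5 classes. Right, the number of genes that passed in granulocyte progenitors in each quartile, higher in red and lower in blue. The medians fall from the shortest to the longest quartile in each grouping, from 0.21 to -0.19 in granulocyte progenitors.

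In HSC/MPP cells 78 of 12189 genes passed (0.64%), 56 higher and 22 lower, 1937 had an unadjusted p under 0.05, and 15 passed without Dnmt3a mice 1 and 4. Gdf3, a growth factor of the TGF-beta family, had 30.4, 54.3, 89.6 and 121 CPM in Dnmt3a mice and 6.51, 3.99, 17.999 and 22.9 CPM in knockout mice (log2 fold change -2.52, SE 0.489, edgeR adjusted p 0.0265). The groups did not overlap, and MxCre controls lay near the lowest Dnmt3a mouse at 32.0 CPM. Ccnd1, the cyclin that drives entry into the cell cycle, fell from 81.4, 76.4, 74.5 and 58.3 CPM to 45.5, 38.5, 29.1 and 49.3 CPM (log2 fold change -0.83, SE 0.166, edgeR adjusted p 0.0293, passed in 10 of 17 alternatives). Ifi30, a lysosomal reductase used in antigen processing, rose from 3.35 to 6.27 CPM in Dnmt3a mice to 10.2 to 19.9 CPM in knockout mice (log2 fold change 1.68, edgeR adjusted p 0.00404), where MxCre controls had 14.99 CPM. The histone gene Hist2h2ac fell from 77.04 to 117 CPM in Dnmt3a mice to 9.80 to 63.3 CPM in knockout mice (log2 fold change -1.75, edgeR adjusted p 0.0301). In the lists for HSC/MPP cells, Tnfrsf14 was the 1 of 18 TNF receptors and ligands that passed, and Ccnd1 the 1 of 14 cell cycle inhibitors and cyclins. The first list held 0 calls without Dnmt3a mouse 4, and the second 0 without Dnmt3a mouse 1.

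The lists of stem cell and S phase genes held no call in HSC/MPP cells. Of all 12189 genes there, 1937 had an unadjusted p under 0.05, and DESeq2 called 343. None of 25 stem cell genes passed edgeR's test, 8 had an unadjusted p under 0.05, DESeq2 called 2 higher, and the median log2 fold change was 0.05 against 0.01 over all genes. Procr, the surface protein EPCR that marks stem cells, had 4.28 to 9.71 CPM in Dnmt3a mice and 8.83 to 20.3 CPM in knockout mice, with an edgeR adjusted p of 0.144. None of 32 S phase genes passed, 9 had an unadjusted p under 0.05, DESeq2 called 3 lower, and the median was -0.20. Clspn, an adaptor of the replication checkpoint, had 61.2 to 76.3 CPM against 47.5 to 55.1 CPM without overlap (log2 fold change -0.40, edgeR adjusted p 0.0798). MxCre controls had 52.1 CPM of Clspn and 30.8 CPM of Procr, so that they lay nearer to the knockout mice for both. None of 26 NF-kB subunits and targets passed, with 2 at an unadjusted p under 0.05, 1 called higher by DESeq2 and a median of 0.23. None of 22 immediate early genes passed, with 1 at an unadjusted p under 0.05, 0 called by DESeq2 and a median of 0.26 (0.12 without Dnmt3a mouse 1, 0.09 without mice 1 and 4). Socs3, a feedback inhibitor of cytokine signalling, reached 62.1 CPM in knockout mouse 3 and ran from 2.81 to 9.77 CPM in the other 7 mice. Of 44 interferon response genes none passed, with 9 at an unadjusted p under 0.05, 1 called higher by DESeq2 and a median of 0.11. Among these Ifit1, which is induced by interferon, had 2.48 to 4.47 CPM against 5.63 to 7.62 CPM.

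Granulocyte progenitors held 383 calls among 12806 genes (2.99%), 209 higher and 174 lower, and 30 without Dnmt3a mice 1 and 4. Plec, which links the cytoskeleton, had 38.997, 23.2, 26.04 and 25.6 CPM in Dnmt3a mice and 12.2, 14.4, 15.2 and 13.3 CPM in knockout mice (log2 fold change -1.03, SE 0.156, edgeR adjusted p 0.00372), and it passed in each of 17 alternatives. MxCre controls had 25.4 CPM of Plec. The nuclear envelope gene Syne1 (50.9 to 23.8 CPM), the dynein gene Dnah8 (29.1 to 6.78 CPM) and the receptor scaffold Erbin (46.8 to 23.4 CPM) also fell, with Dnmt3a mouse 1 or 4 highest in each.

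In the TNF signalling list of these cells, 2 of 30 tested genes passed, and 0 without Dnmt3a mouse 1, without Dnmt3a mouse 4 or without both. Otulin had 36.2 to 47.2 CPM in Dnmt3a mice and 53.3 to 63.3 CPM in knockout mice (log2 fold change 0.45, edgeR adjusted p 0.0377), and Cyld, another deubiquitinase of this pathway, had 26.2 to 37.8 CPM against 21.4 to 23.9 CPM (log2 fold change -0.43, edgeR adjusted p 0.0478). Single members of other lists fell: Ifit2 of 44 interferon response genes (8.89 to 5.46 CPM), Tet2 of 15 DNA methylation enzymes (29.3 to 18.7 CPM), the cell cycle inhibitor Cdkn1b (20.3 to 12.98 CPM), the proliferation gene Mki67 of 33 G2 and M phase genes (215 to 143 CPM) and the redox regulator Txnip of 24 stem cell genes (42.5 to 27.1 CPM). Ebf1 and Vpreb3, 2 of 15 B-lineage genes, fell as well. Without Dnmt3a mouse 4 these lists held 0 calls, and without Dnmt3a mouse 1 the interferon list alone held 1. Over all genes of this class 2.99% passed, and the single calls in the lists of 44, 33 and 24 genes lie near that share. For Ifit2, Tet2, Cdkn1b and Txnip the groups did not overlap, and for Mki67 they did. MxCre controls had 5.73, 20.9, 16.1, 132 and 34.2 CPM of these genes, in each case nearer to the knockout mean than to the Dnmt3a mean.

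In monocyte progenitors 317 of 12397 genes passed (2.56%), 179 higher and 138 lower, and 30 without Dnmt3a mice 1 and 4. Gdf3 fell here too, from 38.6 to 136 CPM in Dnmt3a mice to 6.09 to 37.99 CPM in knockout mice (log2 fold change -2.19, SE 0.488, edgeR adjusted p 0.0296). Ifi30 had 9.32 to 20.8 CPM against 27.01 to 64.0 CPM (log2 fold change 1.31, edgeR adjusted p 0.0134). Per3, a circadian clock gene, had 6.99 to 9.06 CPM in Dnmt3a mice and 3.43 to 5.54 CPM in knockout mice (log2 fold change -0.79, edgeR adjusted p 0.0210), with 8.87 CPM in MxCre. Tet2 fell from 32.5 to 22.2 CPM and Otulin rose from 56.9 to 75.2 CPM, both without overlap, but their lists held 0 calls without Dnmt3a mouse 1 and 0 without Dnmt3a mouse 4. Of 13 B-lineage genes, Ebf1, Cd79a and Vpreb3 fell, 1 without Dnmt3a mouse 4 and 0 without mice 1 and 4. The neutrophil gene Wfdc21 passed (3.21 to 17.97 CPM, edgeR adjusted p 0.0397), but its groups overlapped, with knockout mouse 3 at 42.9 CPM, and its list held 0 calls without Dnmt3a mouse 1 and 0 without mice 1 and 4.

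Few genes passed in the remaining classes. Megakaryocyte progenitors gave 25 of 11601 (0.215%), among them Ifi30 (7.53 to 23.1 CPM), Plec (74.3 to 38.9 CPM) and Dock11, an activator of small GTPases (73.3 to 44.3 CPM). Erythroid progenitors gave 9. C1qtnf12, Eps8l1 and the ubiquitin ligase gene Fbxo44 (2.05 to 0.229 CPM) fell, and Ckm, Gm21887, Gm47283, Lhfpl4 (0.162 to 2.24 CPM), Zfp985 and Zfp990 rose. Of these 9, Zfp990 and Fbxo44 passed in each alternative that gave them an adjusted p, and the other 7 lost their call in the fit of the Dnmt3a and knockout groups alone. Zfp985 and Eps8l1 also lost it without Dnmt3a mouse 1 or without Dnmt3a mouse 3, Eps8l1 further without knockout mouse 1, 2 or 3, and Ckm with finer clusters (Leiden resolution 2). DESeq2 called C1qtnf12 and Gm47283 and gave no adjusted p for the other 7. Basophil and mast cell progenitors gave 21 of 9062 (0.232%) with 3 Dnmt3a mice, since mouse 1 had too few cells of this class. There Pira2, an immunoglobulin-like receptor gene with near-identical copies whose reads may be split, rose from 0.524 to 10.7 CPM, and the complement inhibitor Cd59a rose from 3.79 to 19.1 CPM. Dnmt3a;Tnfr1KO mice had 11.9 CPM of Pira2 and 25.4 CPM of Cd59a, and MxCre controls 1.14 and 9.51 CPM.

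B-lineage transcripts fell over all cells, and the number that passed and the size of the fall depended on which Dnmt3a mice were included. Of 23 B-lineage genes, 9 passed, all lower, and the median log2 fold change was -5.06. Ebf1, the transcription factor that specifies B cells, had 36.0, 3.25, 20.2 and 403 CPM in Dnmt3a mice and 0.620, 0.797, 0.545 and 1.66 CPM in knockout mice (log2 fold change -6.98, SE 1.40, edgeR adjusted p 0.0428). Every knockout mouse lay below every Dnmt3a mouse, but Dnmt3a mouse 2 was within a few CPM of the knockout group and Dnmt3a mouse 4 was far above all others. Pax5, Lef1, Vpreb3, Cd79a and Pou2af1 of this lineage, and the cytokine receptor gene Il7r and the recombinase gene Rag1, showed the same order with Dnmt3a mouse 4 highest. Vpreb1 and Igll1 passed too. Sdc4 and Akap12, which are on none of the lists, did so too. Without Dnmt3a mouse 4 the count was 1 and the median -2.56, without Dnmt3a mouse 1 it was 0 and -5.43, and without both it was 0 and -2.30. DESeq2 called 17 of the 23 lower, and 20 had an unadjusted p under 0.05 in edgeR's test. With the B-lymphoid and T/NK classes removed from the sums, 0 of 22 passed and the median was -2.32. MxCre controls had 2.75 CPM ± 1.52 (SD, n = 3) of Ebf1, between the groups.

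Cells were also counted by class. B-lymphoid cells made up 4.09%, 0.435%, 3.29% and 38.4% of cells in Dnmt3a mice and 0.129%, 0.186%, 0.109% and 0.206% in knockout mice. The groups did not overlap (exact two-sided permutation p 0.0286, the smallest that 4 against 4 allows, Benjamini-Hochberg adjusted p 0.257 over 9 classes). Knockout libraries held 7 to 14 such cells each, and the exact 95% binomial interval of the highest share, 0.206%, was 0.112% to 0.345%, which covers counting error only. The log2 ratio of B-lymphoid to granulocyte plus monocyte progenitors, with 1 cell added on each side, was -1.95, -5.86, -3.77 and 0.785 in Dnmt3a mice and -8.32, -7.25, -8.49 and -7.57 in knockout mice. The difference was -5.21 (exact two-sided permutation p 0.0286), and with finer clusters (Leiden resolution 2) it was -5.40 (exact p 0.0286). Finer clusters also gave a class of lymphoid-primed multipotent progenitors, which made up 9.82%, 9.65%, 5.43% and 1.02% of cells in Dnmt3a mice and 6.52% to 7.72% in knockout mice. With that class counted as lymphoid, the difference was -1.59 (exact p 0.0857) and the groups overlapped. MxCre controls averaged -4.87 ± 1.15 (SD, n = 3) for the first of these ratios.

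Granulocyte progenitors made up 7.42%, 15.1%, 22.6% and 14.5% of cells in Dnmt3a mice and 21.9%, 15.96%, 28.2% and 26.1% in knockout mice, which overlapped (exact two-sided permutation p 0.0857, adjusted p 0.257). Monocyte progenitors made up 12.8% ± 6.81 (SD, n = 4) and 17.7% ± 3.97 (exact p 0.229, adjusted p 0.411). HSC/MPP cells made up 11.1% ± 5.52 in Dnmt3a mice and 12.1% ± 3.73 in knockout mice (exact p 0.8286), and the Dnmt3a mean included 2.96% in mouse 4. None of the 9 named classes passed adjustment, and B-lymphoid cells were the only class with an unadjusted p under 0.05. Clusters that no marker list named included one led by Cd34, Ccl9 and Flt3, which held 8.75% ± 4.29 (SD, n = 4) of Dnmt3a and 9.62% ± 0.617 of knockout cells. A cluster led by histone genes was 29.6% of the cells of Dnmt3a mouse 1 and 0.08% of knockout cells on average.

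**Figure D5:**
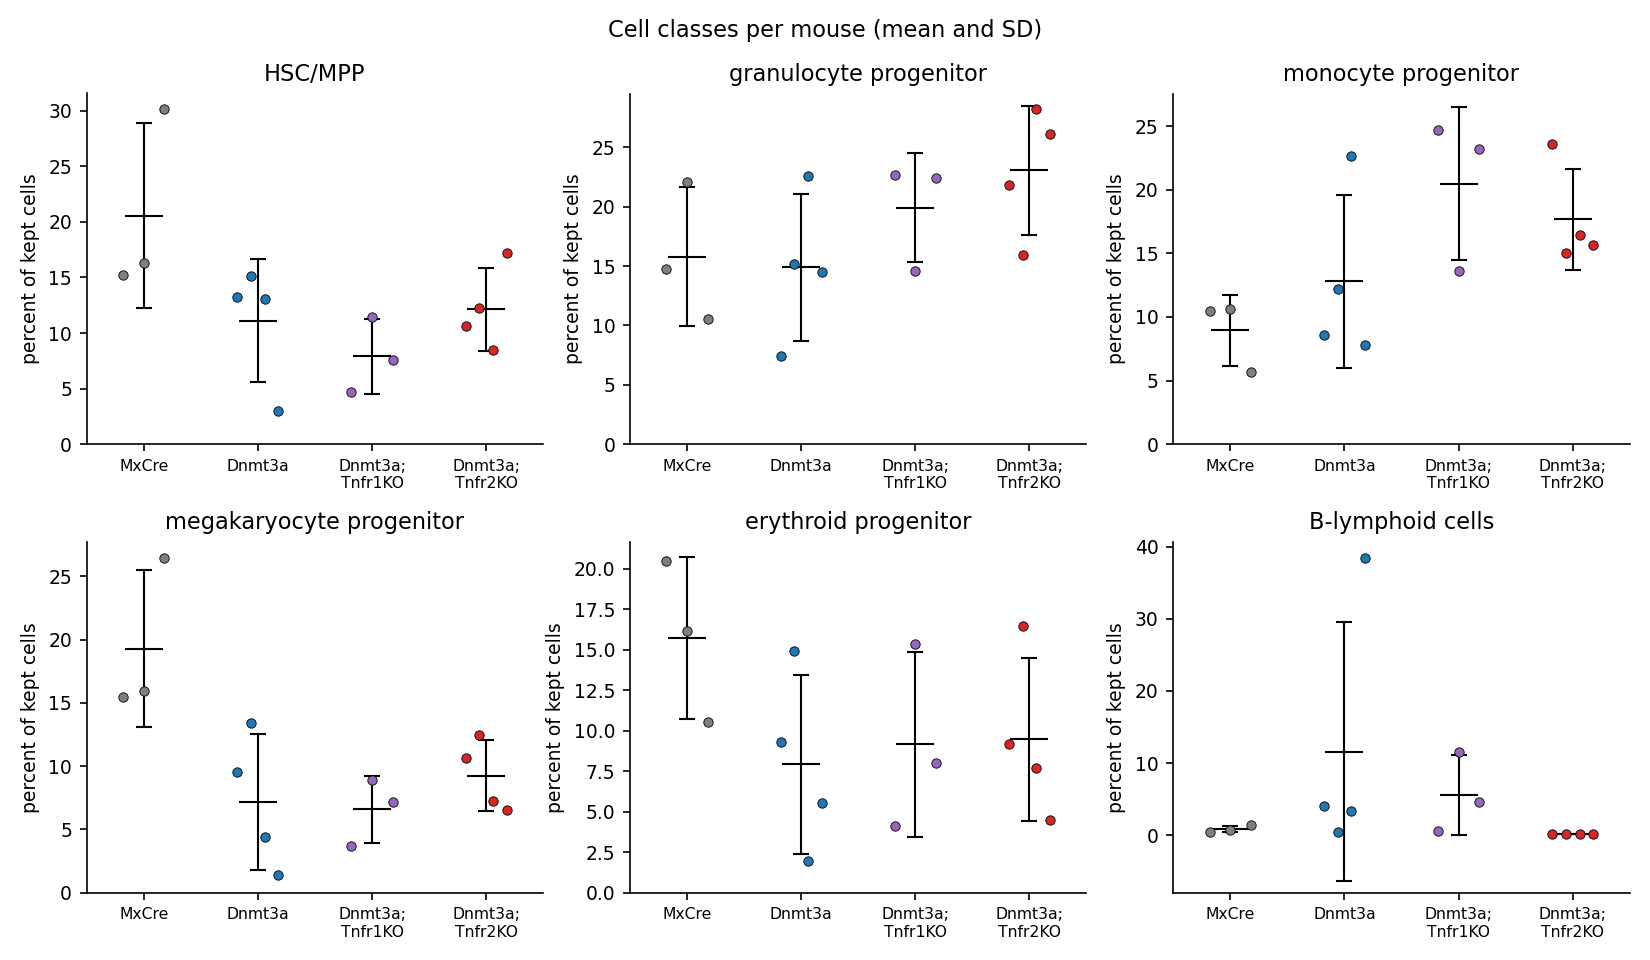
Percent of kept cells in 6 classes per mouse, with mean and SD of each of the 4 genotype groups. Points are mice. B-lymphoid cells reach 38.4% in Dnmt3a mouse 4 and stay at or below 0.206% in the knockout mice, and the other 5 classes overlap between the knockout and Dnmt3a groups.

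Other lineage lists over all cells held few calls or none. For these and the later lists over all cells, 23% of all 15805 genes had an unadjusted p under 0.05, and DESeq2 called 1113. Of 20 lymphoid priming genes Il7r and Rag1 fell, 10 had an unadjusted p under 0.05, DESeq2 called 6 lower, and the median was -0.48 (-0.31 without Dnmt3a mouse 4, -0.29 without mice 1 and 4). Il7r was also the 1 of 28 cytokine receptor genes that passed. Both lists held 0 calls without Dnmt3a mouse 1, without Dnmt3a mouse 4, without both, or with the lymphoid classes removed from the sums. T, NK and innate lymphoid genes (22 tested), dendritic cell genes (16) and MHC class II genes (12) held no call by edgeR. They had 12, 9 and 6 genes at an unadjusted p under 0.05, DESeq2 called 6, 3 and 1 lower, and their medians were -2.39, -0.96 and -0.92. Without Dnmt3a mouse 4 the medians were -0.08, -0.36 and -0.35. Cd74, the chain that guides MHC class II proteins, had 24.8, 83.8, 79.7 and 265.7 CPM in Dnmt3a mice and 66.9, 42.6, 18.5 and 21.4 CPM in knockout mice. Dnmt3a mouse 4 was highest, and the other mice of the groups overlapped.

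Primary granule, neutrophil maturation and erythroid genes did not pass either. Elane, neutrophil elastase, had 2284, 3152, 4823 and 4293 CPM in Dnmt3a mice and 5877, 3297, 5609 and 6813 CPM in knockout mice, which overlapped. None of the 11 primary granule genes tested passed, 1 had an unadjusted p under 0.05, DESeq2 called 0, and the median was 0.46. Of 20 neutrophil maturation genes none passed by edgeR or DESeq2, 0 had an unadjusted p under 0.05, and the median was -0.89. The sign of this median rested on Dnmt3a mouse 4: it was 2.06 without that mouse and 1.84 without Dnmt3a mice 1 and 4. Mmp9, a protease of late neutrophil granules, was 58.6 CPM in Dnmt3a mouse 4 and at most 0.917 CPM in the other Dnmt3a mice. Hba-a1, an alpha globin gene, was 3693 CPM in that mouse, 43.6 to 134.7 CPM in the other Dnmt3a mice and 58.1 to 170.5 CPM in knockout mice. None of 25 erythroid genes passed by edgeR or DESeq2, 8 had an unadjusted p under 0.05, and the median was -0.14, against 0.22 without Dnmt3a mouse 4 and 0.25 without Dnmt3a mice 1 and 4.

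Lists of cell state held 1 call over all cells. Of 46 interferon response genes none passed, 16 had an unadjusted p under 0.05, DESeq2 called 1 higher and 2 lower, and the median was -0.23 (-0.04 without Dnmt3a mouse 4). Ifit2, an interferon-induced inhibitor of translation, had 8.23 to 10.2 CPM in Dnmt3a mice and 4.89 to 7.13 CPM in knockout mice, which did not overlap but missed adjustment (edgeR adjusted p 0.0568). Of 33 G2 and M phase genes none passed, 13 had an unadjusted p under 0.05, DESeq2 called 5 lower, and the median was -0.16 (-0.10 without Dnmt3a mouse 4, 0.03 without mice 1 and 4). Mki67 had 532, 249.7, 275 and 408 CPM in Dnmt3a mice and 188 to 229 CPM in knockout mice, and Dnmt3a mice 1 and 4 were the high ones. Of 15 cell cycle inhibitors and cyclins, Cdkn1b (p27) fell from 41.04 to 24.5 CPM (log2 fold change -0.74, edgeR adjusted p 0.0462, passed in 7 of 17 alternatives), and it did not pass without Dnmt3a mouse 1 or without mouse 4. None of 17 BCL2 family genes passed, with 5 at an unadjusted p under 0.05, 1 called lower by DESeq2 and a median of -0.27 (-0.02 without Dnmt3a mouse 4). Pmaip1, which encodes the death-promoting protein Noxa, had 4.25, 3.76, 2.83 and 4.23 CPM in Dnmt3a mice and 1.29, 1.16, 3.31 and 1.16 CPM in knockout mice, so that knockout mouse 3 lay among the Dnmt3a mice. None of 15 DNA methylation enzymes passed over all cells, with 5 at an unadjusted p under 0.05 and 3 called lower by DESeq2.

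The remaining lists also held no call over all cells. The stem cell (25 tested), S phase (32), megakaryocyte (21), basophil and mast cell (17), myeloid transcription factor (21) and immediate early (26) genes had medians from -0.09 to 0.09, and from -0.14 to 0.11 without Dnmt3a mouse 4, with those of the stem cell, S phase, megakaryocyte and immediate early lists on the other side of 0. The monocyte and macrophage genes (24) had a median of -0.24 (0.10 without Dnmt3a mouse 4, 0.06 without mice 1 and 4), with 3 at an unadjusted p under 0.05 and 2 called lower by DESeq2. In the 6 lists before it, 3, 5, 1, 2, 5 and 1 genes had an unadjusted p under 0.05, and DESeq2 called 1 basophil and mast cell gene higher and 1 myeloid transcription factor lower.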

How the data were processed

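Single cells of 14 mice were measured with 10x Genomics 3' chemistry, version 3.1, with 12000 cells loaded per library, per the labels' protocols. The deposited count matrices hold whole UMI counts per gene and cell barcode, made with bcl2fastq 2.20.0.422 and Cell Ranger 6.0.0 on mm10 (GRCm38), per the submitters' processing notes. No further normalization or doublet removal is recorded there. The UMI totals of the libraries are given in the report, and their counting error is small beside the spread between mice. Intervals cover counting error only.

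Barcodes with at least 1000 UMIs, 500 genes and under 10% mitochondrial UMIs were kept, and doublets were kept. Cells were clustered on 2000 variable genes with 30 principal components, a graph of 20 neighbours and Leiden resolution 1 (scikit-learn 1.9.0, igraph 0.11.9, leidenalg 0.10.2). Of 29 clusters, 20 took the name of the marker set, of 13, with the highest score (minimum 0.5, at least 3 markers detected), and 9 stayed unnamed. That set also needed at least 1 marker among the 10 leading genes of the cluster, and no other set could have more there. Clusters with 50% or more doublets were not named. Classes rest on rebuilt clusters, not on an annotation by the authors, and are named for the markers that the cells resemble.

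Counts were summed per mouse, over all cells and per class, and a library entered the sums of a class only with at least 20 of its cells. CPM of tested genes are counts per 1000000 of the library's summed counts of tested genes, with TMM scaling. CPM of Kit, Ptprc, Cd34, Cd3e and Ly6g are per 1000000 of all its summed counts, without that scaling. The knockout and Dnmt3a mice were compared in a model of all 4 genotype groups with edgeR's quasi-likelihood test (edgeR 4.0.16, R 4.3.3, TMM scaling, filterByExpr, two-sided), and a gene passed at a Benjamini-Hochberg adjusted p under 0.05. Differences between classes were tested with limma 3.58.1 on log2(CPM + 1), computed from the deposited counts. Shares were compared by exact permutation (scipy 1.17.1). Tests on simulated data with 200 changed genes recovered 96.9% of 2-fold changes in granulocyte progenitors, 40.4% over all cells and 18.9% for the difference between classes. False calls numbered 11, 3 and 8 in the same order. The simulation gave all genes the same dispersion, held no mouse that stood apart and drew the classes independently. These rates are therefore not the power in the measured data.

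Gene positions came from a RefSeq table of GRCm38.p6, which held 82.4% of the genes by name or synonym. Named were Tnfrsf1b, Tnfrsf1a, Tnf and Dnmt3a, up to 12 genes per direction over all cells (6 per class) of highest fold change among those that passed with at least 10 CPM and no overlap, up to 4 members per list of smallest p, and the genes that passed near Tnfrsf1b. Genes that passed in every alternative, among them Lhfpl4 and Eps8l1 over all cells, were also named, after their values were seen. So were genes that passed the test between classes and those that passed in erythroid progenitors. The 24 lists of 530 genes and the comparison itself were chosen with earlier results of these data known, so no count over a list is independent evidence. Alternatives were RLE scaling, no filter on low counts, DESeq2 1.42.0, only the groups compared, the replicate number as a block, doublets removed, at least 3000 UMIs, Leiden resolution 2, lymphoid classes removed, a pseudocount of 10 CPM and each of the 8 libraries left out. Values of a few single genes are not reported here. Leaving out Dnmt3a mice 1 and 4 together, and the ratio of B-lymphoid cells alone at Leiden resolution 2, were added after the data were seen.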

Additional observations from a re-analysis of the deposited data

Results flagged for a closer look

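In the Dnmt3a or the knockout group, 1 of the 4 mice stood far from the other 3 for 15 of 72 values checked (18 shares of cells and 54 gene levels). The genes were picked from these data and many of the values vary together, so the count was not compared with chance. Dnmt3a mouse 4 accounted for most of the 15. It held 38.4% B-lymphoid cells against 4.09% in the nearest mouse, 1.71% T/NK/innate lymphoid cells against 0.209%, and 2.96% HSC/MPP cells against 13.1%. Its CPM over all cells were 53.6 for Pax5, 47.4 for Lef1, 98.9 for Sdc4, 98.6 for Il7r, 542 for Vpreb3, 403 for Ebf1, 429.7 for Cd79a, 35.8 for Pou2af1 and 35.8 for Akap12. In the knockout group, mouse 1 held 23.6% monocyte progenitors against 16.5% in the nearest mouse, mouse 4 held 4.18% basophil and mast cell progenitors against 2.24%, and mouse 4 had 2.43 CPM of Vpreb3 against 0.697 CPM.

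The genes below passed a test of a difference in change between granulocyte progenitors and HSC/MPP cells of the same mice (limma, Benjamini-Hochberg adjusted p under 0.05). The value is the change in granulocyte progenitors minus that in HSC/MPP cells on the log2(CPM + 1) scale. On the chromosome of Tnfrsf1b these were Tnfrsf1b at -0.94, Agtrap at 1.15, Ctnnbip1 at 1.23, Noc2l at 0.57 and Srm, which encodes spermidine synthase, at 0.60. Elsewhere they were Anxa3 at 1.02, Gdf3 at 1.00, Gtf2f2 at 0.51, Mrpl58 at 0.34, Atp5g1 at 0.33, H2afj at 0.30 and S100a10 at -0.51. Eps8l1 at 1.49 and Rab6b at 1.23 passed too, but Eps8l1 was at 0 CPM in the knockout group in both classes and Rab6b at 0.0387 and 0.176 CPM, against 1.97 and 7.36 CPM (Eps8l1) and 0.351 and 2.54 CPM (Rab6b) in the Dnmt3a group. Their differences follow from the Dnmt3a level and the pseudocount and do not show that the change differed between classes. The limma adjusted p of these genes ran from 1.43e-04 for Agtrap to 0.0410 for S100a10, H2afj, Mrpl58 and Gtf2f2.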

How the results depend on the processing

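The counts of genes that passed depended on the test and on single mice, while doublets, cell depth and RLE scaling kept them within 1.5 times. DESeq2 called 1113 genes over all cells, 343 in HSC/MPP cells, 1075 in granulocyte, 820 in monocyte, 163 in megakaryocyte, 78 in erythroid and 67 in basophil and mast cell progenitors. A fit of the Dnmt3a and knockout groups alone gave 17, 21, 31, 32, 7, 1 and 8 in the same order, and 5 genes for the difference between classes. Without a filter on low counts, 303 passed in HSC/MPP cells and 539, 109 and 229 in monocyte, megakaryocyte and basophil and mast cell progenitors. Without B-lymphoid and T/NK cells 86 passed over all cells. Leaving out 1 mouse at a time gave 32 (knockout mouse 1) to 785 (Dnmt3a mouse 2) over all cells, 20 (Dnmt3a mouse 3 or knockout mouse 1) to 393 in HSC/MPP cells, 72 to 735 in granulocyte, 67 to 573 in monocyte, 10 to 234 in megakaryocyte, 7 to 156 in erythroid and 8 to 104 in basophil and mast cell progenitors, and 4 to 17 for the difference between classes. The highest counts came without Dnmt3a mouse 2, except for basophil and mast cell progenitors (knockout mouse 4). Without Dnmt3a mice 1 and 4, 30 passed over all cells, 15 in HSC/MPP cells, 30 in granulocyte and 30 in monocyte progenitors. A pseudocount of 10 CPM gave 24 genes for the difference between classes. The causes were not tested.

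The labels do not say whether the replicate numbers pair the mice, which were treated as unpaired. Same-numbered libraries correlated at 0.19, 0.29, -0.06 and 0.24 (Pearson's r across 7481 genes, which are not replicates). Not every library correlated best with its own number, and these values cannot settle whether mice were paired. With the replicate number as a block, 135 genes passed over all cells, 71 in HSC/MPP cells, 214 in granulocyte, 232 in monocyte, 29 in megakaryocyte, 14 in erythroid and 38 in basophil and mast cell progenitors, and 10 for the difference between classes. The lineage ratio of -5.21 then had a sign-flip p of 0.125, the smallest that 4 pairs allow. At Leiden resolution 2 it was -5.40 (exact p 0.0286) for B-lymphoid cells alone, a setting added after the data were seen, and -1.59 (exact p 0.0857) with the lymphoid-primed class that is named only there. It ran from -6.26 to -4.05 with 1 mouse left out, where 3 against 4 allows no exact p below 0.0571.

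Shares of classes passed in no setting. Some differences, in percentage points, changed sign: erythroid progenitors at -0.45 (Leiden resolution 2), -0.45 (without Dnmt3a mouse 3) and -0.79 (without knockout mouse 2), basophil and mast cell progenitors at -0.050 (Leiden resolution 2), -0.23, -0.13 and -0.22 (without Dnmt3a mouse 1, Dnmt3a mouse 4 or knockout mouse 4), and HSC/MPP cells at -1.70 and -0.67 (without Dnmt3a mouse 4 or knockout mouse 4). With 1 mouse left out these differences reached 3.86, 0.945 and 2.37. Of the other values, 1576 kept their direction and side of the threshold, 246 lost and 6 gained a call. B-lymphoid and dendritic classes could not be fitted, since knockout libraries held fewer than 20 B-lymphoid cells and no cluster was named dendritic. Basophil and mast cell progenitors were not fitted at Leiden resolution 2.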
